A study of Danio rerio with 6 samples.

Results

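Genes of ciliary transport and of the motile axoneme were followed in the RNAseq libraries of zebrafish larvae at 72 hpf, in 3 wild-type pools (WT) and 3 pools of hnrnpul1/1l double homozygous mutants (DKO). Members were the rows of the count files whose RefSeq accession paired with a gene symbol starting with ift, bbs, dnah, dnai, dnal, dnaaf, tctn or rsph, or with one of 9 symbols of the ARL and foxj1 genes. There were 48 such rows for 47 genes, of 15455 rows in the files. Of the 47 genes, 26 belong to transport (13 ift, 6 bbs and 7 ARL genes) and 21 to the motile axoneme (8 dnai and dnal, 8 dnaaf, 3 rsph and 2 foxj1 genes). No row paired with a dnah or a tctn symbol, so the axonemal dynein heavy chains and the tectonic genes were not analysed here. A further 4 ift, 2 bbs, 3 dnai or dnal, 2 dnaaf and 3 rsph genes of the annotation had no row either.

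Each library came from 8 embryos with the tail removed for genotyping, so the RNA is that of the head and trunk. The mutants carry frameshift alleles of both hnrnpul1 and hnrnpul1l. The study describes the mutants as maternal zygotic for hnrnpul1l and zygotic for hnrnpul1, and in its results takes the wild types from an incross of hnrnpul1l heterozygotes, while in its methods the controls are siblings. Mothers of larvae that are maternal zygotic for hnrnpul1l are themselves mutant and have no wild-type offspring. Parentage and genotype therefore cannot be told apart. The mutated gene hnrnpul1 had 127, 122 and 118 CPM (counts per 1000000 of the scaled library) in the wild-type pools, against 47.7, 45.7 and 22.1 CPM in the mutant pools, and no row paired with hnrnpul1l. The libraries held 40891309 to 62580215 counts, and Spearman correlations between them were 0.900 to 0.960.

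Cilia are built and maintained by intraflagellar transport (IFT), in which kinesin-2 carries IFT-B and IFT-A complexes to the tip and dynein-2 brings them back. The BBSome, a complex of BBS proteins, moves membrane proteins in and out of the cilium and is recruited to membranes by the GTPase ARL6. ARL3 releases lipid-modified proteins inside the cilium, and the outer segment of a photoreceptor is a modified cilium that depends on these routes. Motile cilia add dynein arms and radial spokes to the axoneme. Their arms are pre-assembled in the cytoplasm by DNAAF factors, and their genes are switched on by Foxj1. In zebrafish motile cilia line the central canal, the pronephros, the olfactory pits and Kupffer's vesicle, and their loss is known to give curved bodies and scoliosis.

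Of the 26 transport genes, all of which passed the filter on low counts, 15 were lower and 11 higher in mutants by their fitted mean, and the median was -0.11 on the log2 scale. Of the 21 motile genes, which also all passed, 5 were lower and 16 higher, with a median of 0.21. The 16 include dnai2a, which could only be higher. Where a mean CPM of at least 5 was required, 10 of the 21 were tested and 4 of these were lower, with a median of 0.15. Over all 13553 transcripts tested, 6900 (50.9%) were lower and the median was -0.01. The transport median was -0.037 without mutant pool 3 (13 of 26 lower), -0.18 without wild-type pool 1 or mutant pool 2, -0.20 without mutant pool 1 and -0.23 without wild-type pool 3. The motile median was 0.50 without wild-type pool 1, 0.33 without mutant pool 3 and 0.12 without wild-type pool 3. By the quasi-likelihood test of edgeR no transcript, member or not, had an adjusted p below 0.05, a background of 0% called, while 210 transcripts (1.55%) passed under DESeq2 and 1191 had an unadjusted p below 0.05 in edgeR. At an unadjusted p below 0.05, 4 transport genes were lower (arl3l2, arl3l1, arl13a and bbs2) and none was higher, against 4.61% of all transcripts lower and 4.18% higher. Scaling by total counts, which moved the median of all transcripts to -0.13, added arl6 and ift74 to these. Without wild-type pool 1, or without mutant pool 1, only arl3l2 and arl13a of these were left. In the motile group dnaaf1 was lower at this threshold. No call is made for dnai2a, which passed the filter on low counts only through the mutant libraries. With wild-type pool 2, wild-type pool 3, mutant pool 1 or mutant pool 2 taken out, dnaaf1 did not pass. Without wild-type pool 1, foxj1a passed in place of dnaaf1. The mutant pools all lay below the wild-type pools for 6 transport genes and 1 motile gene, where 9.08% of all transcripts did. They all lay above the wild-type pools for 1 transport gene and, with dnai2a not counted, 1 motile gene (foxj1a), where 7.71% did. In RNA of whole pools fewer cells of a type and less RNA per cell cannot be told apart.

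**Figure D1:**
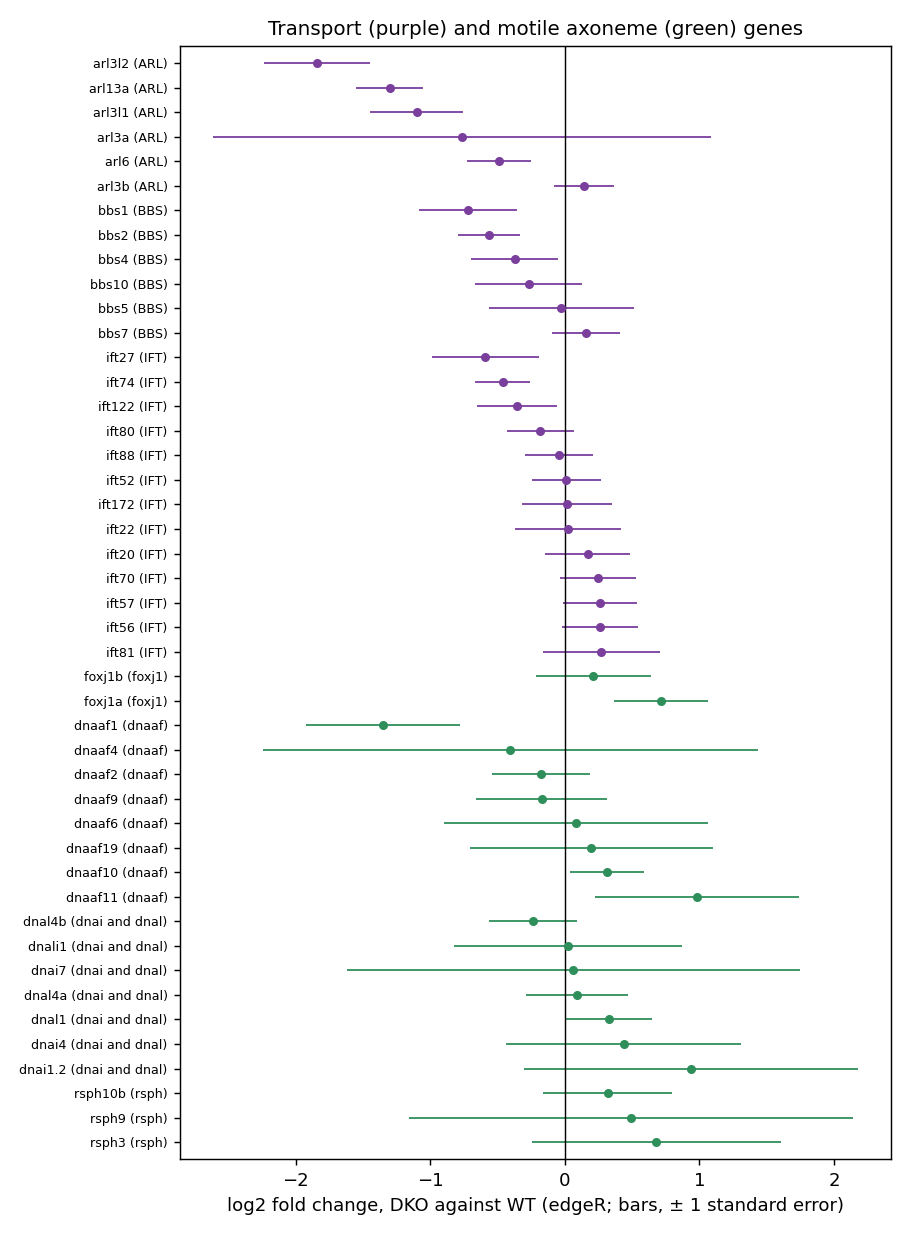
Log2 fold change of mutants (DKO) against wild types (WT) for 45 of the 47 genes, with bars of ± 1 standard error from edgeR, transport genes in purple and motile axoneme genes in green. The lowest values are those of arl3l2, dnaaf1 and arl13a, the ift genes lie within 0.6 of 0, and dnai2a is not drawn because all wild-type pools were at 0.

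Among the ARL GTPases, arl3l2, an ARL3-like gene, had the lowest log2 fold change. It had 52.5, 40.1 and 28.2 CPM across the wild types against 6.06, 13.1 and 14.5 CPM in the mutant pools, so that the highest mutant pool was still below the lowest wild-type pool. The means were 40.3 ± 12.2 CPM and 11.2 ± 4.53 CPM (SD, n = 3 each), and the fitted level was 3.59-fold lower, or -1.84 ± 0.40 in log2 fold change (standard error, SE; edgeR adjusted p = 0.350). DESeq2, which called 0.851% of all transcripts lower at an adjusted p below 0.05, gave 0.00502 for arl3l2, and over 14 alternatives its adjusted p lay between 0.00502 and 0.999. The value of arl3l2 was between -2.08 and -1.51 with each pool left out in turn.

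The arl13a gene, of the same family of small GTPases, had the lowest unadjusted p of the ARL genes (8.69e-04, edgeR). Its wild-type pools were at 41.7, 29.9 and 41.8 CPM and its mutant pools at 13.1, 17.5 and 15.3 CPM, with no overlap. This was a 2.47-fold lower level in mutants, a log2 fold change of -1.30 ± 0.25 (SE, edgeR adjusted p = 0.350, and an adjusted p of 0.00356 from DESeq2). Over its 14 alternatives the adjusted p lay between 0.00356 and 0.961. With each pool left out in turn the log2 fold change of arl13a was between -1.45 and -1.18.

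Of the 4 ARL3-type genes, the ARL3-like arl3l1 and arl3l2 were lower at an unadjusted p below 0.05, and arl3a and arl3b were not. For arl3l1, the other ARL3-like gene, the wild-type pools held 156, 77.8 and 122 CPM and the mutant pools 43.8, 42.3 and 79.7 CPM. Mutant pool 3 lay just above wild-type pool 2, so the groups overlapped, and the log2 fold change was -1.10 ± 0.35 (SE, edgeR adjusted p = 0.474), from -1.47 to -0.86 with each pool left out. In contrast arl3b, which held the most counts of the ARL genes, had 222, 158 and 161 CPM in wild types and 206, 164 and 226 CPM in mutants. Its log2 fold change of 0.14 ± 0.22 (SE) was well inside the spread of the pools. Expressed within each library as a ratio to arl3b, arl3l1 was at 0.701, 0.492 and 0.759 in wild types and at 0.212, 0.258 and 0.353 in mutants. The ratio of arl3l2 to arl3b was 0.236, 0.254 and 0.175 in wild types and 0.0294, 0.0797 and 0.0644 in mutants. Such a ratio does not depend on how libraries are scaled, and neither overlapped between genotypes (exact two-sided permutation test, p = 0.1 for each, the smallest that 3 pools against 3 allow). The ratio of arl3l2 to arl3l1 did overlap, with 0.139 to 0.309 in mutants against 0.230 to 0.516 in wild types (exact two-sided permutation test, p = 0.2, over 9 such ratios compared, none of which can pass an adjustment). The fourth gene, arl3a, was barely present, with 13, 29 and 39 counts in the wild-type libraries and 19, 0 and 25 counts in the mutant libraries, and no difference was detectable at this depth (log2 fold change -0.77 ± 1.85, SE).

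The arl6 gene, whose product recruits the BBSome, had 25.6, 25.7 and 29.0 CPM in wild types and 20.9, 15.4 and 20.9 CPM in mutants. All mutant pools were below all wild-type pools, but the log2 fold change of -0.49 ± 0.24 (SE, edgeR adjusted p = 0.604) did not pass the unadjusted threshold either, though it did under scaling by total counts (-0.61).

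**Figure D2:**
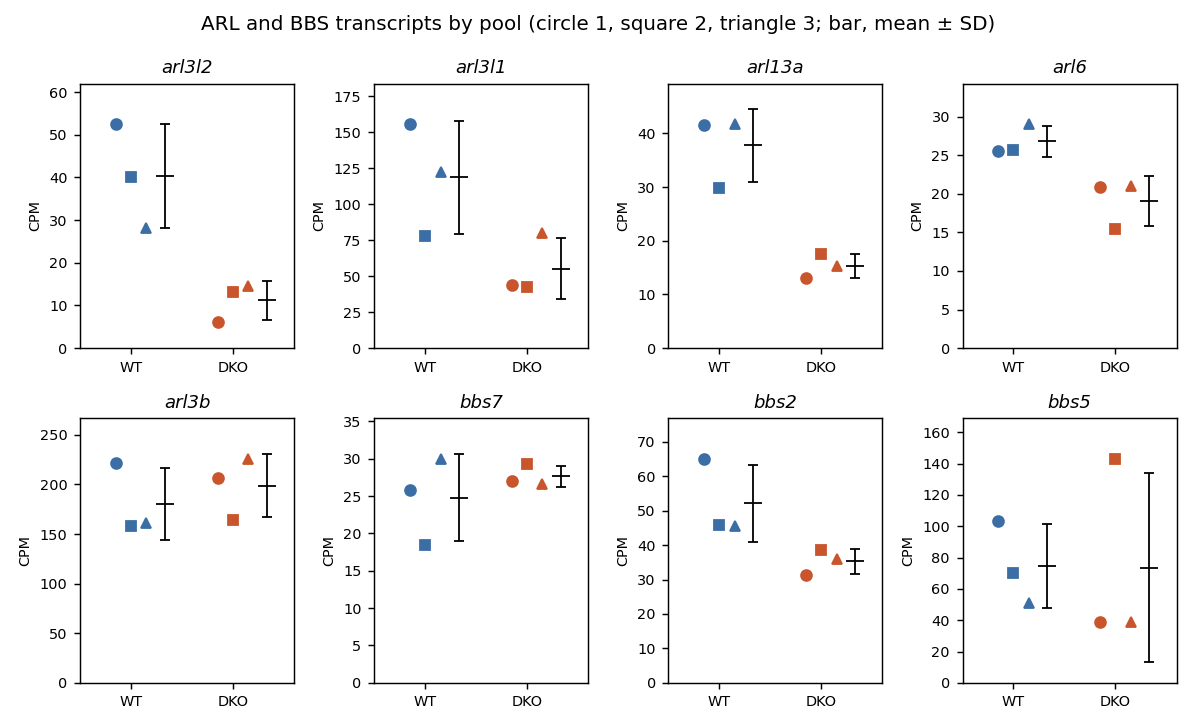
Level in CPM of 8 transport genes in each pool of wild types (blue) and mutants (orange), with pool 1 as a circle, pool 2 as a square and pool 3 as a triangle, and the mean ± SD as a bar. The genotypes are apart for arl3l2, arl13a, arl6 and bbs2, overlap for arl3l1, arl3b and bbs7, and a single mutant pool at 143 CPM sets the spread of bbs5.

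Of the 6 BBS genes with a row 5 had a lower mean in mutants, and the median was -0.32 on the log2 scale. Only bbs2 among them had an unadjusted p below 0.05. This core subunit of the BBSome had 65.1, 45.8 and 45.6 CPM in wild types and 31.4, 38.5 and 36.1 CPM in mutants, without overlap. Its log2 fold change was -0.56 ± 0.23 (SE, edgeR adjusted p = 0.550) and lay between -0.65 and -0.37 with each pool left out. The subunit gene bbs1 had the lowest log2 fold change of the class, with 12.1, 7.20 and 13.4 CPM in wild types and 5.56, 7.21 and 7.02 CPM in mutants. Its lowest wild-type pool and highest mutant pool were nearly equal, and the log2 fold change of -0.72 ± 0.37 (SE) did not pass with all pools. Without wild-type pool 2 it was -0.95, and bbs1 had an unadjusted p below 0.05.

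The value of the subunit gene bbs5 rested on a single pool. It had 103, 69.9 and 50.8 CPM in wild types, and 38.6, 143 and 38.6 CPM in mutants. Mutant pools 1 and 3 were below every wild-type pool and mutant pool 2 was above every one. The log2 fold change was -0.03 ± 0.54 (SE) with all pools and -0.91 without mutant pool 2, where bbs5 had an unadjusted p below 0.05. The only BBS gene with a higher mean was bbs7, at 25.8, 18.5 and 30.0 CPM in wild types and 27.0, 29.3 and 26.6 CPM in mutants, with a log2 fold change of 0.16 ± 0.25 (SE). The subunit gene bbs4 and the chaperonin-like gene bbs10, which in mammals helps the BBSome assemble, had log2 fold changes of -0.37 ± 0.32 (SE) and -0.27 ± 0.40 (SE), and their groups overlapped.

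No IFT gene had an unadjusted p below 0.05 with TMM scaling (trimmed mean of M-values) and the default filter on low counts. Of 13 genes 5 had a lower and 8 a higher mean, with log2 fold changes from -0.59 to 0.27 and a median of 0.02. When libraries were scaled by total counts instead, 8 were lower and 5 higher and their median was -0.12, with the median of all transcripts at -0.13. The lowest log2 fold change was that of ift27, a small GTPase of IFT-B that in mammals links IFT to the exit of BBSome cargo. It had 10.8, 9.57 and 9.02 CPM in wild types and 7.19, 3.73 and 8.61 CPM in mutants, and although no mutant pool reached the wild types, the log2 fold change of -0.59 had a standard error of 0.40. The lowest unadjusted p of the class was that of ift74, an IFT-B core subunit, with 27.7, 30.9 and 30.2 CPM in wild types and 21.8, 21.2 and 21.4 CPM in mutants. The pools of each genotype were close to each other and the genotypes did not overlap, and the log2 fold change was -0.46 ± 0.21 (SE, edgeR adjusted p = 0.578). Its unadjusted p was below 0.05 under scaling by total counts (log2 fold change -0.59) and where a mean CPM of at least 5 was required (-0.46).

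The gene for its binding partner, ift81, had the highest log2 fold change, with 3.57, 7.0 and 6.50 CPM in wild types and 8.26, 7.64 and 4.69 CPM in mutants. The groups overlapped and the log2 fold change was 0.27 ± 0.44 (SE). The small IFT-B subunit gene ift20, which held the most counts of the class, had 56.8, 35.9 and 32.6 CPM in wild types and 41.0, 64.1 and 35.9 CPM in mutants, with a log2 fold change of 0.17 ± 0.32 (SE). Of the others, ift57 was higher in every mutant pool, at 14.2, 12.8 and 12.2 CPM against 11.6, 9.79 and 11.4 CPM, a log2 fold change of 0.26 ± 0.28 (SE). The remaining IFT-B genes ift22, ift52, ift56, ift70, ift80, ift88 and ift172 lay between -0.18 and 0.26, with standard errors of 0.25 to 0.39. The only IFT-A gene among the members, ift122, was at -0.36 ± 0.30 (SE).

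**Figure D3:**
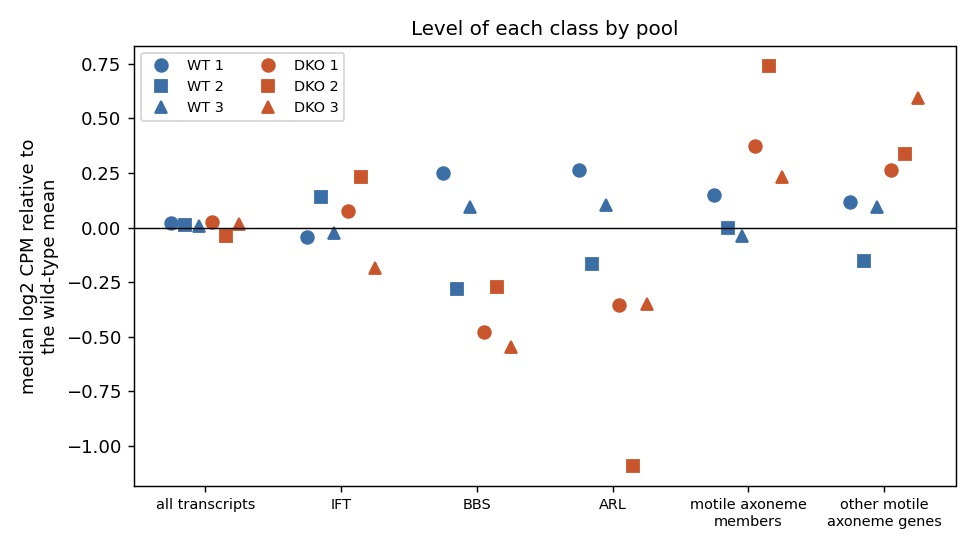
Median over the genes of each class of the log2 CPM in a pool relative to the wild-type mean, for wild types (blue) and mutants (orange), pool 1 as a circle, pool 2 as a square and pool 3 as a triangle. The mutant pools lie between -1.09 and -0.35 for the ARL genes and between 0.23 and 0.74 for the motile axoneme members, while for the IFT genes they lie on both sides of 0.

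Class by class, the medians of the single pools were as follows. For the ARL genes they were 0.26, -0.17 and 0.10 log2 units from the wild-type mean in the wild types against -0.36, -1.09 and -0.35 in the mutants. For the BBS genes they were 0.25, -0.28 and 0.09 in the wild types against -0.48, -0.27 and -0.55 in the mutants, so that wild-type pool 2 lay within the mutant range. For the motile axoneme members they were 0.15, 0.00 and -0.04 in the wild types, and 0.37, 0.74 and 0.23 in the mutants. These are descriptions of lists chosen with results of these data known, and no test was made of them.

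Of the motile genes, the transcription factor gene foxj1a had 10.6, 5.36 and 8.45 CPM in wild types and 13.7, 14.8 and 11.7 CPM in mutants. Every mutant pool lay above every wild-type pool, with means of 8.13 ± 2.62 CPM and 13.4 ± 1.57 CPM (SD, n = 3 each). The log2 fold change of foxj1a, 0.72 ± 0.35 (SE, edgeR adjusted p = 0.611), did not pass the unadjusted threshold with all pools and was between 0.49 and 0.95 with each pool left out. Its paralogue foxj1b was nearly constant in wild types, at 5.45, 5.53 and 5.80 CPM, and varied in mutants, at 6.90, 3.75 and 8.77 CPM. The groups overlapped and the log2 fold change was 0.21 ± 0.43 (SE).

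The dynein assembly factor genes went in both directions, 4 lower and 4 higher. The lowest log2 fold change was that of dnaaf1, also known as lrrc50, whose loss in zebrafish gives immotile cilia and kidney cysts. It had 11.4, 7.91 and 9.23 CPM in wild types and 4.10, 1.23 and 5.84 CPM in mutants, without overlap. The log2 fold change was -1.35 ± 0.57 (SE, edgeR adjusted p = 0.559), from -1.83 to -0.90 with each pool left out. The highest was that of dnaaf11, also known as lrrc6, with 0.718, 1.84 and 1.76 CPM in wild types and 1.73, 4.42 and 2.41 CPM in mutants. The ranges overlapped slightly, and the log2 fold change of 0.99 had a standard error of 0.76. The gene dnaaf9 held 20.0, 19.9 and 14.7 CPM in wild types and 17.8, 5.76 and 24.8 CPM in mutants, so that mutant pools 2 and 3 lay on opposite sides of the wild types (log2 fold change -0.17 ± 0.49, SE). The other genes of the class, dnaaf2, dnaaf4, dnaaf6, dnaaf10 and dnaaf19, lay between -0.41 and 0.31. For dnaaf19, the former ccdc103, the coding row was listed at 0 in all 6 libraries and the counts stood on a non-coding row.

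Among the dynein intermediate and light chain genes, dnai2a had counts in the mutant libraries only. It had 0 counts in each wild-type library, of 52250779 to 61266049 counts in all, and 75, 50 and 81 counts in the mutant libraries. Set against a floor of 3 counts in each wild-type library, its mean of 1.32 CPM in mutants (per 1000000 of the unscaled total) was at least 24.9-fold higher. The row passed the filter on low counts only through the mutant libraries, so it had to be higher there to be tested, and its p-values are not given. Of the 15455 rows, dnai2a was the only one at 0 in every wild-type library and with at least 50 counts in every mutant library, and 6 rows had the opposite pattern. The product of dnai2a is an outer dynein arm intermediate chain. No row paired with its paralogue dnai2b, so a division of reads between the copies cannot be judged from these counts. Reads and a genome were not analysed here, and whether the 0 counts reflect the level of the transcript or how its reads were counted was not tested.

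None of the remaining chain genes had an unadjusted p below 0.05. The outer arm light chain gene dnal1 had 42.2, 24.9 and 21.9 CPM in wild types and 34.1, 47.5 and 29.9 CPM in mutants (log2 fold change 0.33 ± 0.32, SE). The light chain gene dnal4b, the only one of the class with a lower mean, had 19.5, 19.6 and 18.8 CPM in wild types, and 23.5, 10.6 and 15.1 CPM in mutants, a much wider spread (log2 fold change -0.24 ± 0.33, SE). The genes dnal4a, dnali1, dnai1.2, dnai4 and dnai7 lay between 0.03 and 0.94 with overlapping groups. Of these only dnal4a rested on more than 1000 counts in each library, the others on at most 165. Under scaling by total counts 4 of the 8 chain genes had a lower mean.

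All 3 radial spoke genes with a row had a higher mean in mutants, and all 3 overlapped between genotypes. For rsph10b the wild-type pools held 15.1, 17.7 and 8.57 CPM and the mutant pools 18.3, 25.6 and 7.60 CPM, so pool 3 was the lowest of each genotype (log2 fold change 0.32 ± 0.48, SE). For rsph3 the values were 0.889, 1.52 and 0.732 CPM in wild types and 1.56, 2.57 and 0.896 CPM in mutants, a log2 fold change of 0.68 ± 0.92 (SE). The third gene, rsph9, was at 0.49 ± 1.65 (SE), with 0 counts in wild-type pool 2. With dnai2a left out, the median over the motile genes was 0.20. At its lower bound dnai2a was still the highest of the motile genes, so the median of 0.21 could not change there. Scaling by total counts gave 9 lower and 12 higher motile genes, with a median of 0.11.

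**Figure D4:**
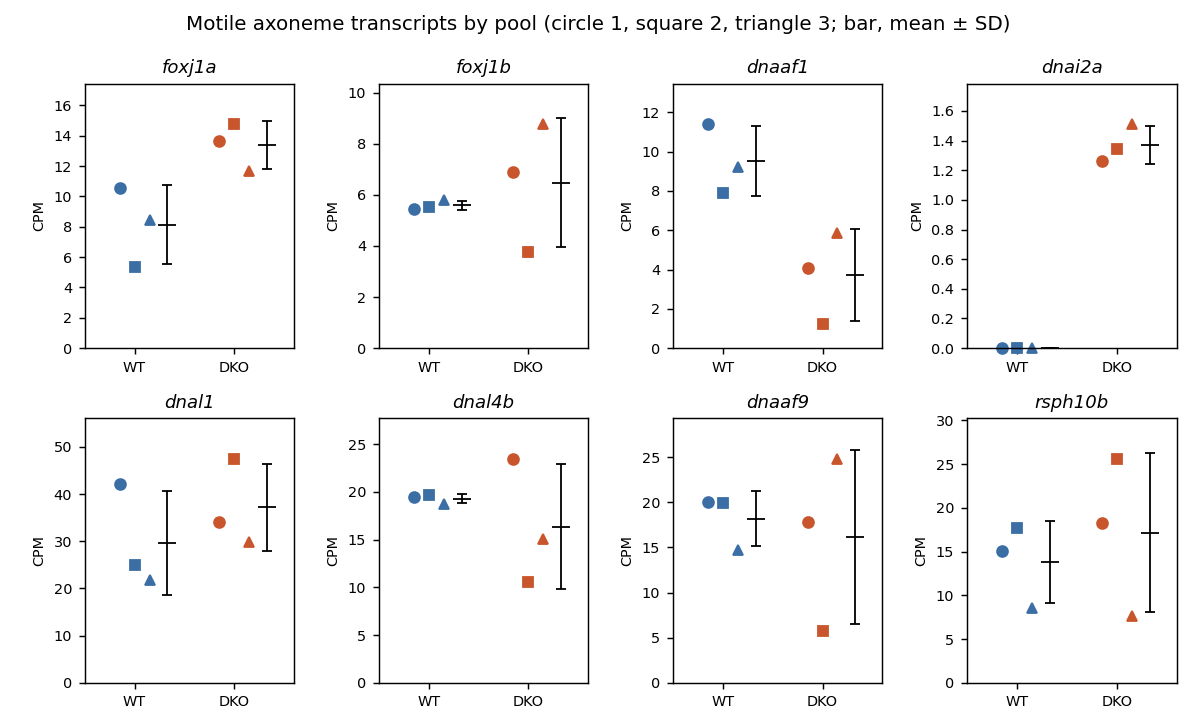
Level in CPM of 8 motile axoneme genes in each pool of wild types (blue) and mutants (orange), with pool 1 as a circle, pool 2 as a square and pool 3 as a triangle, and the mean ± SD as a bar. The genotypes are apart for foxj1a and dnai2a, with the mutants higher, and for dnaaf1, with the mutants lower, and they overlap for the other 5 genes.

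Genes of the same structures that carry other names were listed alongside. Of 53 other motile axoneme genes tested, 36 had a higher and 17 a lower mean in mutants, and the median was 0.22 on the log2 scale, near that of the members. Their pool medians were 0.12, -0.15 and 0.10 log2 units from the wild-type mean in wild types and 0.26, 0.34 and 0.59 in mutants. The mutant pools were all above the wild types for 7 of the 53, cfap53, cfap97, cfap100, capslb, enkur, ropn1l and spaca9, and all below for 1, cfap58, where 7.71% and 9.08% of all transcripts were. In wild types ropn1l was at 0, 1.05 and 0 CPM and cfap53 at 0.359, 0 and 0.911 CPM. Both passed the filter on low counts only with the help of mutant libraries. In turn cfap58, at 0 CPM in mutant pool 2, passed only with the help of wild-type libraries. Only cfap100, a gene of the inner dynein arm docking apparatus in other species, had an unadjusted p below 0.05, against 4.18% of all transcripts higher at this threshold. It had 2.58, 1.80 and 2.88 CPM in wild types and 4.79, 6.43 and 4.61 CPM in mutants, a log2 fold change of 1.12 ± 0.48 (SE, edgeR adjusted p = 0.568). Under scaling by total counts 30 of the 53 were higher, with a median of 0.10.

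On the transport side, the BBSome subunit gene ttc8, also called bbs8, had 32.9, 25.0 and 35.4 CPM in wild types and 16.2, 14.1 and 14.6 CPM in mutants. The groups were well apart, with a log2 fold change of -1.05 ± 0.24 (SE, edgeR adjusted p = 0.354) that lay between -1.19 and -0.95 with each pool left out. DESeq2 gave ttc8 an adjusted p of 0.0241, and over 14 alternatives the range was 0.0241 to 0.999. Only ttc8 of 13 tested partners of ARL3 and the BBSome had an unadjusted p below 0.05, and the list median was -0.08. At this threshold 4.61% of all transcripts were lower. At the transition zone, the gate at the base of the cilium, tmem237a had 64.7, 32.9 and 34.0 CPM in wild types and 8.77, 9.62 and 21.6 CPM in mutants. All mutant pools were lower, with a log2 fold change of -1.72 ± 0.44 (SE, edgeR adjusted p = 0.407). For tmem237a the DESeq2 adjusted p was 0.0280, and over 14 alternatives the range was 0.0280 to 0.999. Its paralogue tmem237b was at -0.16. Of the 18 tested transition zone genes 2, tmem237a among them, were lower at an unadjusted p below 0.05 and none was higher. Over all transcripts the shares were 4.61% and 4.18%. The list median was 0.06, or -0.07 under scaling by total counts. The 7 tested genes of kinesin-2 and dynein-2 had a median of -0.10, and the 6 IFT genes under other names a median of -0.06, with no unadjusted p below 0.05 in either list.

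Most photoreceptor markers had a lower mean in the mutant pools, as did arl3l2 and arl13a. The list mixes rod and cone genes, which were not compared with each other. Of 63 listed rod and cone genes 50 had a row, none was at 0 in all libraries, and 49 were tested. Of these 43 were lower in mutants, 20 of them at an unadjusted p below 0.05 and 27 without overlap between genotypes (4.61% and 9.08% of all transcripts), and the median log2 fold change was -1.01. The summed level of the list was 18911, 14360 and 12595 CPM in the wild types against 2766, 6601 and 8255 CPM in the mutants. From highest to lowest, the 6 libraries had the same order in arl3l2 as in this sum. Genes outside the list, such as cntn1b and scrn2, had this order too, and the share of all transcripts with it was not counted. For every 1000 CPM of the list there were 2.78, 2.79 and 2.24 CPM of arl3l2 in the wild types against 2.19, 1.98 and 1.76 CPM in the mutants, a mean of 2.60 ± 0.316 against 1.98 ± 0.215 (SD, n = 3 each; exact two-sided permutation test, p = 0.1). Relative to the list sum, the mean of arl3l2 was lower by 0.40 on the log2 scale. The sum weighs the most abundant genes of the list most, and was itself lower by 1.38, against a list median of -1.01. For arl13a the same measure was 2.20, 2.08 and 3.32 in wild types and 4.75, 2.65 and 1.85 in mutants, and for arl3l1 it was 8.24, 5.42 and 9.71 against 15.8, 6.41 and 9.66. Both overlapped between genotypes (exact two-sided permutation test, p = 0.7 for arl13a and p = 0.5 for arl3l1). The genes ttc8 and tmem237a overlapped too, with 1.77 to 5.84 and 1.46 to 3.17 in mutants against 1.74 to 2.81 and 2.29 to 3.42 in wild types. For arl3b, arl6, bbs2 and ift74 the measure was higher in every mutant pool, by 1.84, 1.19, 1.07 and 1.19 on the log2 scale (exact two-sided permutation test, p = 0.1 for each). The list was chosen with results known, and its sum, the divisor, was lower in every mutant pool. A gene that fell less than the list therefore rises in this measure, and one that fell about as much overlaps. The p-values of this measure follow largely from the choice of divisor, and no conclusion is drawn from them. The part of photoreceptor cells in these results was not tested.

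**Figure D5:**
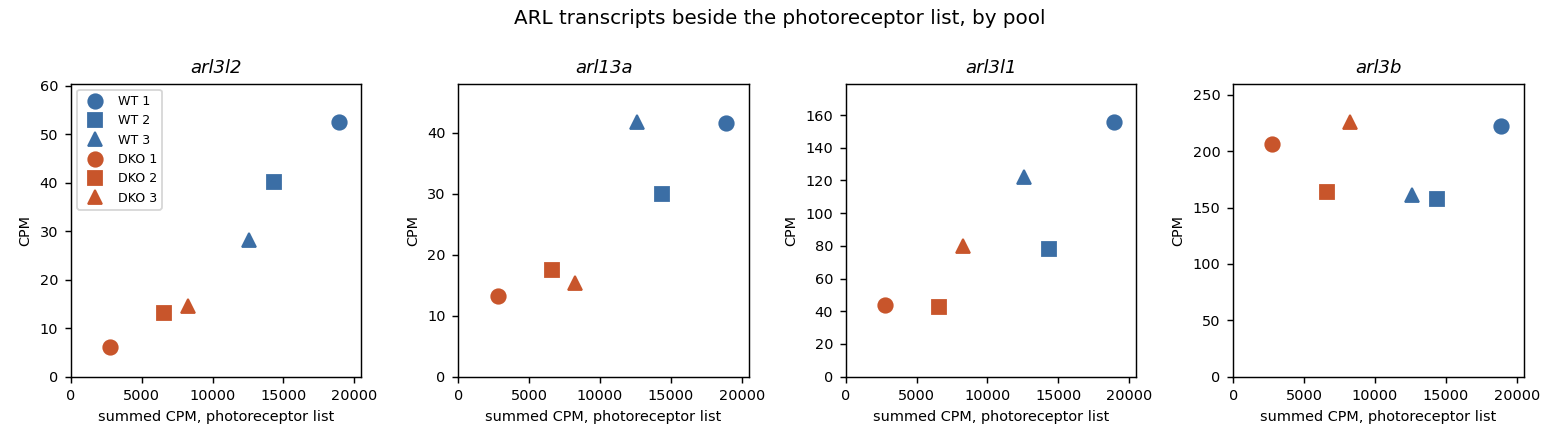
CPM of arl3l2, arl13a, arl3l1 and arl3b plotted against the summed CPM of the rod and cone list in each pool, wild types in blue and mutants in orange, pool 1 as a circle, pool 2 as a square and pool 3 as a triangle. The libraries stand in the same order on both axes for arl3l2, the mutant pools are low on both axes for arl13a, and arl3b is between 158 and 226 CPM at any level of the list. The order of arl3l2 is shared by genes outside the list, such as cntn1b.

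The transcripts whose pattern over the 6 libraries was most like that of arl3l2 were cntn1b, scrn2, ric8a, snap25b, impdh1a, rbp3, syt5a, gja9b, cdh10a and mmadhca, among 12343 with a mean of at least 1 CPM. Their Pearson r with arl3l2 in log2 CPM lay between 0.982 and 0.998, over libraries that share a genotype split, and it is given as a description only. Among them, rbp3 encodes the retinoid-binding protein of the matrix around photoreceptors, and snap25b a SNARE protein of synaptic terminals. The rbp3 transcript had 103, 68.5 and 64.9 CPM in wild types and 20.4, 39.5 and 37.6 CPM in mutants. None of the 10 was a member. The members most like arl3l2 were bbs2 (r = 0.926, rank 156) and arl13a (r = 0.904, rank 240).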

How the data were processed

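RNA of the head and trunk was sequenced from 3 pools of 8 wild-type and 3 pools of 8 mutant embryos as polyadenylated, strand-specific libraries. Nothing says that pools came from separate clutches, so p-values measure the spread between these pools. The authors deposited estimated counts per RefSeq transcript, not scaled for depth or length. The submitters' processing notes name kallisto 0.42.4 and bcl2fastq 2.20.0.422, with no role, and the build danRer10. Estimated counts can divide reads between near-identical copies. Without transcript lengths, levels were not compared between genes.

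Libraries held 40891309 to 62580215 counts, so 1 CPM stands for 40.9 to 62.6 counts, and 15.8% to 18.3% of values were fractional. Values were rounded to whole numbers. Symbols came from a RefSeq table of GRCz12tu, which paired 14740 rows with 14315 genes. No sequence table was used. The unpaired rows (1.42% to 2.36% of counts) stayed in totals and tests.

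Mutants were compared with wild types in edgeR 4.0.16 (R 4.3.3) by the quasi-likelihood test, with filterByExpr, TMM factors (0.913 to 1.09) and no covariate, with Benjamini-Hochberg adjustment over all transcripts tested. The standard error is the size of the log2 fold change over the square root of F. The fit was also run on simulated counts drawn with the means and spreads of these data, and no result here rests on that run. Log2 CPM used a prior count of 2. The biological coefficient of variation was 0.610. A gene with several rows was represented by the row with the most counts. Alternatives were RLE factors, total-count scaling, DESeq2 1.42.0, limma-voom (limma 3.58.1), other filters, counts summed per gene, a replicate block, each library left out, and the unadjusted rule of the paper's methods.

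Values in every pool are given for the ARL and foxj1 genes, for members with an unadjusted p below 0.05, and for the lowest, the highest and the most counted member of each class. Genes outside this rule (ift74, ift57, hnrnpul1, rbp3 and those of other lists) were chosen after their values were seen. Members and lists were chosen with earlier results of these data known. The values of 1 member and 1 other listed gene are not reported here, though both count in the lists.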

Additional observations from a re-analysis of the deposited data

How the results depend on the processing

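No transcript passed an adjusted p below 0.05 in edgeR under either other scaling, either other filter, counts summed per gene or the replicate block, nor in limma-voom, while DESeq2 called 210 and the unadjusted rule of the paper's methods 1546. With each pool left out in turn the number was 0 to 1. The median of the transport genes was -0.11, and moved to -0.23 under total-count scaling (where the median of all transcripts moved by -0.12), to -0.22 under limma-voom and to -0.23 with the replicate block. It was -0.23 to -0.037 with pools left out. The median of the motile genes was 0.12 to 0.50 with pools left out, the highest without wild-type pool 1. It was 0.15 where a mean CPM of at least 5 was required, with 4 of 10 lower. The number of transport genes lower at an unadjusted p below 0.05, 4 with all pools, was 2 to 5 with pools left out and 6 under total-count scaling. Over all transcripts, in both directions, 1191 were at this threshold with all pools, 1100 without wild-type pool 1 and 616 without wild-type pool 2. Under total-count scaling 1372 were, and 8223 of 13553 transcripts had a lower mean. For the motile genes dnai2a, which could only be higher, is not counted at this threshold. The number was 1 (dnaaf1) with all pools. Without wild-type pool 1 it was 1 (foxj1a), and without wild-type pool 2 or wild-type pool 3 none passed. The number was 0 where a mean CPM of at least 5 was required, which leaves out dnai2a and tests 10 of the 21.

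For the 24 genes chosen for values in every pool, 184 of 188 values under other settings kept direction and stayed above the adjusted threshold. None of the 24 passed that threshold with the main settings. In DESeq2 arl3l2 and arl13a passed it, and bbs5 turned to 2.18e-04. The remaining value is that of dnai2a, which could only be higher, so no call is made for it. Crossings of the unadjusted threshold were not counted here. There arl6 crossed under total-count scaling, bbs2 with the replicate block and dnaaf1 at a mean CPM of at least 5. With pools left out, 9 of 144 values turned sign, in 7 genes. Their ranges were -0.91 to 0.29 for bbs5, -0.014 to 0.32 for bbs7, -0.082 to 0.46 for ift20, -0.56 to 0.027 for dnal4b, -0.62 to 0.27 for dnaaf9, -0.060 to 0.67 for rsph10b and -0.072 to 0.52 for foxj1b.

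The labels link pools of the 2 genotypes by a number only. Deviations of same-numbered pools from their group means correlated at -0.09, 0.13 and 0.38. Wild-type pools 2 and 3 correlated best with the mutant pool of the same number, and wild-type pool 1 with mutant pool 2 (0.23). Whether same-numbered pools share more than a number was not tested. With the replicate block 1355 transcripts had an unadjusted p below 0.05, against 1191 without it, and 3 transport genes against 4, with bbs2 above the threshold.

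The genes arl3a, dnaaf4, dnai1.2, dnai2a and rsph9 had at most 85 counts in any library, and the depth limits what was detectable there.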

Other observations

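Markers of other ciliated cells were listed as well. Of 12 tested hair cell genes 7 were lower, with none at an unadjusted p below 0.05, and their summed level was 98.6 to 114 CPM in wild types and 97.6 to 148 CPM in mutants. For the neurons contacting the cerebrospinal fluid, the floor plate and the Reissner fibre, 8 of 13 listed genes had a row. None of pkd2l1, pkd1l2a, urp1 and sspo, the listed gene of the Reissner fibre, was among them. Of the 8 genes, 6 had a higher mean, and the median was 0.23 on the log2 scale. The 2 lower ones were urp2 (-0.58) and ntn1b (-0.66). Summed levels were 185 to 249 CPM in wild types and 222 to 377 CPM in mutants. Of these sums ntn1a held 89.3 to 138 CPM and 106 to 220 CPM. Of 8 genes of the pronephric tubule 5 were lower, 1 of them (trpm7) at an unadjusted p below 0.05, against 4.61% of all transcripts. The median was -0.10, and the summed levels of 206 to 325 CPM in wild types and 171 to 306 CPM in mutants overlapped. The 5 tested olfactory neuron genes had a median of -0.11 and summed levels of 38.2 to 48.2 CPM and 21.2 to 47.7 CPM.

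All 9 tested pan-neuronal genes had a lower mean in mutants, and the median was -0.41 on the log2 scale. Of these 2 (snap25b and nefma) had an unadjusted p below 0.05, against 4.61% of all transcripts lower at this threshold. The summed level of the 9 genes was 3756 to 5345 CPM in wild types and 2681 to 4956 CPM in mutants, so the genotypes overlapped. The 8 tested regulators of motile ciliogenesis other than foxj1a and foxj1b had a median of 0.06, with 5 higher, and -0.07 under total-count scaling.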
